A study of Mus musculus with 2 samples.

Results

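The DNase-seq peak lists came from 2 mouse erythroid progenitor lines, each in 1 state. On every chromosome except 3, 7, 9 and 12, 23101 regions were open in all 4 lists. Of these, 1039 ranked higher in estradiol-treated G1E-ER4 cells than in G1E cells. DNase-seq maps open chromatin by sequencing the ends that DNase I cuts in intact nuclei. Peaks of the 4 lists merged into 188044 regions, of which 29568 were in all 4. The G1E-ER4 cells were Gata1-restored and had differentiated for 24 hours in 10 nM beta-estradiol, and the G1E cells were untreated Gata1-negative progenitors. Both are male lines of strain 129, with 1 sample and 2 peak lists each. The labels do not say if a state's lists stem from separately grown cells. Erythroid transcription factor genes had 109 shared regions for 30 genes and liver or neural genes 19 for 15. Among other gene lists, heme and iron genes had 81 for 25 and housekeeping genes 40 for 18. Megakaryocyte genes had 32 for 24 and globin genes 5 for 5. These counts therefore do not identify the cell type, and accessibility shows it less directly than RNA would. Cell line, restored gene and hormone differed together, so they cannot be told apart.

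Gata1 is a zinc-finger transcription factor that binds GATA sequences and drives the red cell programme. G1E cells were derived from Gata1-null embryonic stem cells and stop at a progenitor stage, and G1E-ER4 cells carry Gata1 fused to the ligand-binding domain of the estrogen receptor, so that estradiol brings the protein into action. Gata1 often acts beside Tal1, which with its partners binds E-boxes, and beside Klf1, which binds C-rich sequences. Spi1, the ETS factor also called PU.1, and Gata1 counteract each other in blood progenitors, and Gata2 occupies many GATA sites before Gata1 does.

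The 8 sequences below are the 200 bases around the strongest G1E-ER4 summit of members that carry a GATA site there. The members near Smarca5, Ndel1, Prex1, Brpf3 and Bik are among the 12 with the largest gap. Those near Socs3, Ank1 and Itgb3 lie at genes of the survival and maturation, red cell membrane and megakaryocyte lists, in that order. Each is given on the forward strand of mm9, named by the gene with the nearest start, and capitals mark a GATA site, which is GATA preceded by A or T and followed by A or G, on either strand.
Smarca5, in an intron of Frem3, chr8:83207746-83207945: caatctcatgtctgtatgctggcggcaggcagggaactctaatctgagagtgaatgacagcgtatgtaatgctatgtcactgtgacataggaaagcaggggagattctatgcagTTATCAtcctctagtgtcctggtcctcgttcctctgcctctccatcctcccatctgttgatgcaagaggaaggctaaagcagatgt
Ndel1, intron, chr11:68669641-68669840: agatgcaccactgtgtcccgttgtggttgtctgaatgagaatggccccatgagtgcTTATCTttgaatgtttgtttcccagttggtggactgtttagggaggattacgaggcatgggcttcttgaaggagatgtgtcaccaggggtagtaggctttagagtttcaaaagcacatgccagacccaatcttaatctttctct
Prex1, intron, chr2:166491173-166491372: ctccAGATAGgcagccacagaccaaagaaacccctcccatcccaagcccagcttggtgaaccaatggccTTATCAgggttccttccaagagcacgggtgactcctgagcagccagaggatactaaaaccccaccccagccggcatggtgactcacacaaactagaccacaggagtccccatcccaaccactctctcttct
Brpf3, intron, chr17:28966195-28966394: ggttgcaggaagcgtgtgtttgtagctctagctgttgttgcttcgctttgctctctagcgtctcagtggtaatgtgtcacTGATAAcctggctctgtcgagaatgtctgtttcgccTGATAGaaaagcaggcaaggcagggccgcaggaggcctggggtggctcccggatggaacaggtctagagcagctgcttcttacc
Bik, between genes, chr15:83354154-83354353: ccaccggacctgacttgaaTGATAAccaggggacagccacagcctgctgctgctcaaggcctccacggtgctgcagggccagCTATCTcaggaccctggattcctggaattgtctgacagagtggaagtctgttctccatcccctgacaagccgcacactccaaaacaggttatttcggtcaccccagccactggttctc
Socs3, between genes, chr11:117835915-117836114: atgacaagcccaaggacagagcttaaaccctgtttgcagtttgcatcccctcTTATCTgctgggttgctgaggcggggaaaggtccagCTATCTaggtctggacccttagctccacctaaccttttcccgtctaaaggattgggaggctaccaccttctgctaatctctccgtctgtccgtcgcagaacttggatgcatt
Ank1, intron, chr8:24242055-24242254: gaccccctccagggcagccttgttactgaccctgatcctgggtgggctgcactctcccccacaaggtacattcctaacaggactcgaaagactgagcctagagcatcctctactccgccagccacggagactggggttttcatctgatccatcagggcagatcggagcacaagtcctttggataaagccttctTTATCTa
Itgb3, intron, chr11:104483479-104483678: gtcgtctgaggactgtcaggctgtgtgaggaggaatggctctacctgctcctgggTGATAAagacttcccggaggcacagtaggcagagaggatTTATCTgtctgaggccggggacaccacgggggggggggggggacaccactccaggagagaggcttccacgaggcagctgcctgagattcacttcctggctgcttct

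The members were chosen by rank. Each list held 100000 peaks, and a peak's percentile is the rank of its signal, a smoothed density of DNase cuts, within its own list. A region is a run of peaks that overlap by at least 1 bp, and it took the best percentile of each list. A member had its lower G1E-ER4 percentile at least 10 points above its higher G1E percentile, and this difference is called the gap. The percentiles below are therefore values selected on, given without a test. The same rule with the states exchanged gave 885 regions that ranked lower in G1E-ER4, and 4 crossed pairings, each with 1 list of both states on either side, gave the noise level between lists.

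Members made up 4.50% of the 23101 shared regions and the regions that ranked lower in G1E-ER4 made up 3.83%. The crossed pairings took 1.84% with list 1 of both states above, 3.26% with list 2 of both states above, 2.70% with G1E-ER4 list 1 and G1E list 2 above, and 2.32% with G1E-ER4 list 2 and G1E list 1 above. The members thus outnumbered every crossed set, which held 424, 753, 623 and 536 regions. With 4 lists there are only 3 ways to form pairs, so no permutation test over lists could reach a small p. The count was not above the crossed sets under every definition: among regions of at most 2000 bp it was 412 against 213 to 548 in the crossed sets, and with 50% reciprocal overlap it was 217 against 87 to 245.

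**Figure D1:**
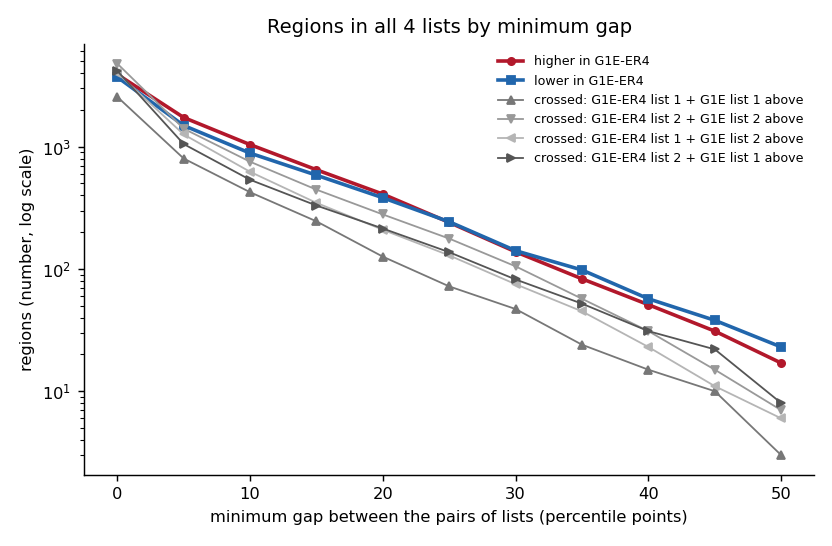
Number of shared regions (log axis) whose gap reached the minimum on the x axis, in percentile points, for regions higher in G1E-ER4, regions lower in G1E-ER4 and the 4 crossed pairings. At 10 points 1039 regions ranked higher in G1E-ER4 and 885 lower, against 424 to 753 in the crossed pairings; at 30 points there were 138 and 141 against 47 to 105.

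The members' median percentiles were 77.0 and 75.2 in G1E-ER4 lists 1 and 2 and 43.8 and 42.6 in G1E lists 1 and 2. The median gap was 17.4 points and the largest 67.1. Few members moved between the ends of the lists. Both G1E-ER4 percentiles were at least 90 in 39 members, both G1E percentiles were at most 25 in 112, and only 2 members were at 75 or more in both G1E-ER4 lists while at 25 or less in both G1E lists. By their own upper and lower lists, the lower-ranking regions had 37, 108 and 3. The crossed sets, which hold fewer regions, had 3 to 22, 71 to 93 and 1 to 2. A member could not have a G1E percentile above 90, which left 14866 shared regions able to qualify. Just inside the limit, the region near Lrrc4, in an intron of Snd1, stood at 82.7 and 76.4 in G1E-ER4, against 66.3 and 7.63 in G1E, a gap of 10.0. Just outside it, the region near Armc2 stood at 86.6 and 89.2 in G1E-ER4, against 76.6 and 70.0 in G1E, a gap of 9.99.

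The member with the largest gap lay at chr8:83207528-83208973, in an intron of Frem3, which encodes an extracellular matrix protein. The nearest start, 55550 bp away, was that of Smarca5, the ATPase of ISWI chromatin remodellers. Its percentiles were 78.9 and 84.1 in G1E-ER4, against 11.0 and 11.9 in G1E, so the lists of each state nearly coincided. A region between genes near Spdef, an ETS transcription factor, at chr17:27869208-27873163 stood at 96.6 and 94.0 in G1E-ER4, against 37.6 and 4.95 in G1E. Here the G1E lists differed from each other by more than 30 points. The member in an intron of Ndel1, a partner of dynein and Lis1, at chr11:68669434-68670463 had 82.2 and 68.3 in G1E-ER4, against 12.7 and 6.76 in G1E.

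Chromatin and signalling genes were among the others of the first 12. An intron of Brpf3, a reader subunit of a histone acetyltransferase complex, held a member at chr17:28964364-28966814 with 95.7 and 91.0 in G1E-ER4, against 31.4 and 38.1 in G1E. An intron of Hdac4, a class II histone deacetylase, held one at chr1:93831430-93833870 with 58.3 and 64.2 in G1E-ER4, against 5.46 and 1.15 in G1E, so its gap came from very low G1E ranks. Upstream of Bik, which encodes a pro-apoptotic BH3 protein, chr15:83353373-83355456 had 87.6 and 86.7 in G1E-ER4, against 34.0 and 13.5 in G1E. An intron of Ptpn11, the phosphatase Shp2, held chr5:121634489-121636195 with 89.2 and 86.8 in G1E-ER4, against 4.41 and 34.2 in G1E. The remaining members of the 12 lay in introns of Tbx21, Trerf1, Prex1 and Sema4g and between genes near Senp2. A GATA site lay within 100 bp of the G1E-ER4 summit in 9 of the 12, and those in Tbx21, Trerf1 and Sema4g had none. The share was 40.1% over all members and 51.4% over the 138 members with a gap of 30 points or more.

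**Figure D2:**
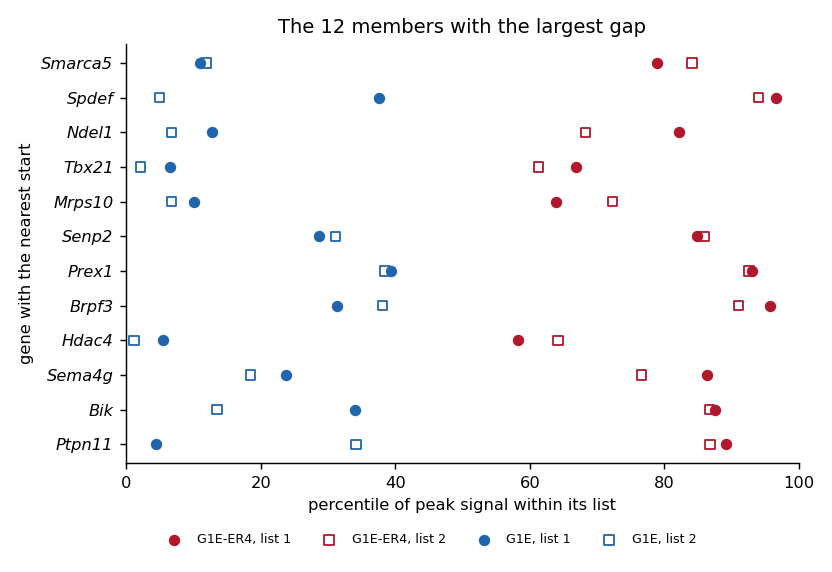
Percentile of peak signal within its list for the 12 members with the largest gap, by the gene with the nearest start; red marks stand for G1E-ER4 lists and blue marks for G1E lists, filled for list 1 and open for list 2. The G1E-ER4 marks lie to the right of the G1E marks in each row because the regions were selected on this, and the Smarca5 row has the largest gap, with 78.9 and 84.1 against 11.0 and 11.9.

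Sequence was no part of the rule, so motifs were counted in the 200 bp around the best summit of the upper lists, with 95% Wilson intervals that cover counting error only. A GATA site was present in 40.1% of members (37.2 to 43.1, 417 of 1039). It was present in 45.0% of the regions that ranked lower in G1E-ER4, in 22.4 to 38.4% of the crossed sets and in 33.1% of the 13827 other shared regions that could have qualified. GATA sites were thus more frequent than in any crossed set in regions moving in either direction. For members the margin was small, as the highest crossed share of 38.4% lay inside their interval. Which direction had more depended on the processing: members had the higher share in 6 of 22 alternatives, among them reciprocal overlap at 52.1% in members and 43.3% in lower-ranking regions and the GC weighting given below. The shares with 2 or more GATA sites were 14.1% of members, 18.6% of the lower-ranking regions, 4.66 to 9.03% of the crossed sets and 8.45% of the other regions. The Tal1 and Gata1 composite, CTG followed after 7 or 8 bases by a GATA site and so a subset of the GATA sites, was found in 7.22% of members (5.80 to 8.95), 10.1% of the lower-ranking regions, 0.943 to 5.05% of the crossed sets and 4.88% of the other regions. The Bik, Brpf3 and Itgb3 sequences above hold it. With a G1E-ER4 list left out, regions were chosen anew from the remaining lists. The crossed sets then had a single G1E list above the remaining lists. Without G1E-ER4 list 1 the 3383 regions ranking higher had 7.51% with 2 or more sites (crossed 4.95 to 11.1%) and 4.32% with the composite (3.08 to 6.0%). Without G1E-ER4 list 2 the 3857 regions ranking higher had 9.41% and 4.59%, also inside the crossed ranges.

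Every other one of the 20 motifs searched had a share in members inside the crossed range when regions were taken as they are. The Klf-type sequence CCNCNCCC was found in 39.9% of members (37.0 to 43.0), in 32.1% of the regions that ranked lower and in 19.9 to 44.0% of the crossed sets. Weighted to the GC content of the other regions, outside promoters, its share in members was 32.8%, above the crossed 22.6 to 31.3% and beside 32.3% in the lower-ranking regions. ETS-type sequences, CCGGAA or AGGAAG, were found in 27.2% of members against 39.9% of the lower-ranking regions and 26.8 to 34.9% of the crossed sets. The Spi1-type sequence GAGGAAGT, which contains an ETS-type one, was found in 0.962% of members (0.524 to 1.76) against 7.46% of the lower-ranking regions (5.90 to 9.38) and 0.943 to 3.45% of the crossed sets. The members' ETS and Spi1 shares thus lay inside the crossed range, near its lower end, and those of the lower-ranking regions above it. With the GC weighting the members' ETS share was 26.3%, below the crossed 27.1 to 34.1%. In regions with the best summits of the states within 100 bp, the members' Spi1 share was 0.455% (2 of 440) against 2.0 to 3.54%. In a crossed set that distance compares its upper lists with each other, so the subsets were not chosen alike. Runx sequences, TGTGGT, were in 15.6% of members and AP-1 sequences, TGANTCA, in 8.28%, both inside the crossed ranges of 12.9 to 18.7% and 5.66 to 9.56%. The estrogen receptor palindrome was found in 0 of 1039 members, and its upper Wilson bound was 0.368%. Both control patterns, the GATA site with its inner letters exchanged, were also inside the crossed range: AAGTAA and its kin were in 19.0% of members against 15.3 to 25.2%, and AATGAA and its kin in 27.6% against 18.1 to 38.4%.

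**Figure D3:**
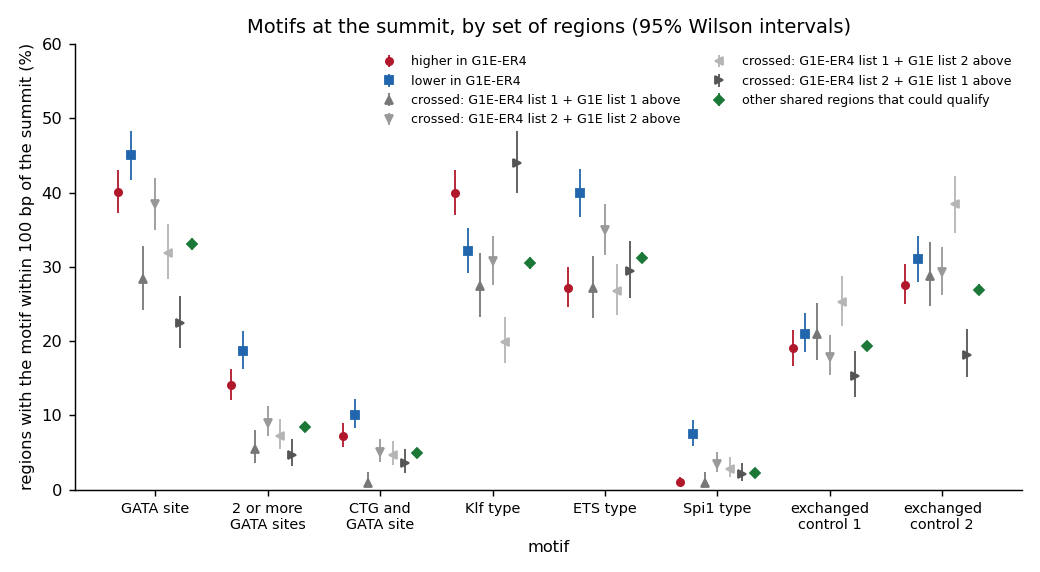
Share of regions with each motif within 100 bp of the summit, with 95% Wilson intervals, for regions higher in G1E-ER4, lower in G1E-ER4, the 4 crossed sets and the other shared regions that could qualify. GATA sites were in 40.1% of members and 45.0% of the lower-ranking regions, above the crossed sets at 22.4 to 38.4%, while Spi1-type sequences were in 0.962% of members and 7.46% of the lower-ranking regions.

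The GATA share varied with base composition and with the lists used. Outside promoters it was 43.7% in members, 45.8% in the lower-ranking regions and 27.2 to 39.9% in the crossed sets; weighted to the GC content of the other regions it was 46.1%, 43.1% and 27.5 to 39.1%. With G1E-ER4 list 1 left out, the regions chosen anew had 30.3% against 25.4 to 38.3% in the crossed sets of the remaining lists. With G1E-ER4 list 2 left out, those chosen anew had 35.5% against 27.6 to 39.0%. The excess over the crossed sets was thus not seen with a G1E-ER4 list left out. It was also not seen in a motif window of 400 bp, with 55.5% against 39.0 to 58.0%. Around the best summit of the lower lists, which is the G1E summit in members, the share was 31.3% against 27.8 to 38.8%. By gap, the share was 38.3% at 10 to 15 points, 40.3% at 15 to 20, 36.9% at 20 to 30 and 51.4% (43.2 to 59.6) in the 138 members at 30 or more. The lower-ranking regions at 30 or more points had 51.1%, and the crossed sets 23.2 to 44.8%.

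GATA sites of members were concentrated at the summit. In 50 bp bins, 15.4% of members had a site at the summit itself, 13.8% and 14.6% in the bins on either side, and 6.16 to 7.51% in the bins 200 bp away. The exchanged control AAGTAA was at 3.95% in the central bin and 5.20 to 7.22% at 200 to 300 bp. The lower-ranking regions had 18.3% in the central bin, the crossed sets 6.90 to 12.9%, and the other regions 11.5%. The Smarca5 sequence above is of this kind, whereas in Ank1 the only site lies at the edge of the window.

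**Figure D4:**
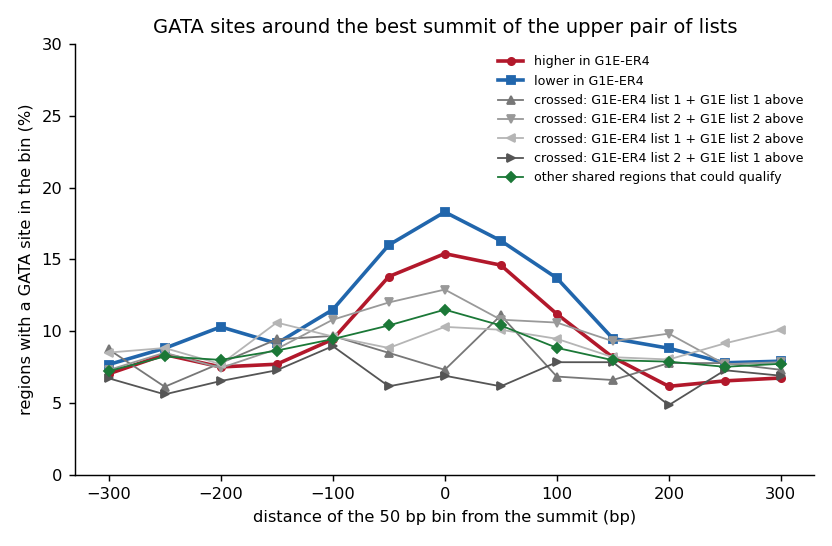
Share of regions with a GATA site in each 50 bp bin, by distance in bp from the best summit of the upper pair of lists, for the same sets. Members stood at 15.4% and lower-ranking regions at 18.3% in the central bin, the crossed sets at 6.90 to 12.9%.

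Many members had their strongest G1E-ER4 and G1E cuts at different places. The best summits of the states lay within 100 bp of each other in 42.3% of members, against 55.5% of the regions that ranked lower in G1E-ER4, 45.8 to 72.4% of the crossed sets and 71.3% of the other regions. In a crossed set this compares its upper lists with each other, so its share is not a like measure. Summits of the upper and lower lists lay over 200 bp apart in 50.0% of members and 34.0% of the lower-ranking regions. In the crossed sets it was 25.1 to 49.8%, so members were barely beyond that range. In 519 members the summits were over 200 bp apart, so that the windows did not overlap, and the same region could be read at both. A GATA site lay at the G1E-ER4 summit in 37.6% of these (33.5 to 41.8) and at the G1E summit in 19.7% (16.5 to 23.3), a difference of 17.9 points (95% paired interval 12.7 to 23.2). It was at the G1E-ER4 summit alone in 151 regions and at the G1E summit alone in 58. In the 4 crossed sets the difference between upper and lower summits ran from -13.1 to 8.77 points. In the 301 regions that ranked lower in G1E-ER4, 32.9% had a GATA site at the G1E-ER4 summit and 38.2% at the G1E summit, and the interval of that difference, -2.53 to 13.2 points as G1E minus G1E-ER4, included 0. The exchanged control AAGTAA differed by 5.59 points in the members, inside its crossed range of -9.74 to 10.7. In the higher-ranking regions chosen anew without G1E-ER4 list 1 the difference was 4.85 points. This was inside the crossed range of the remaining lists, -3.08 to 10.1. Without any other single list the difference was 13.0 to 15.9 points and above the crossed range.

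**Figure D5:**
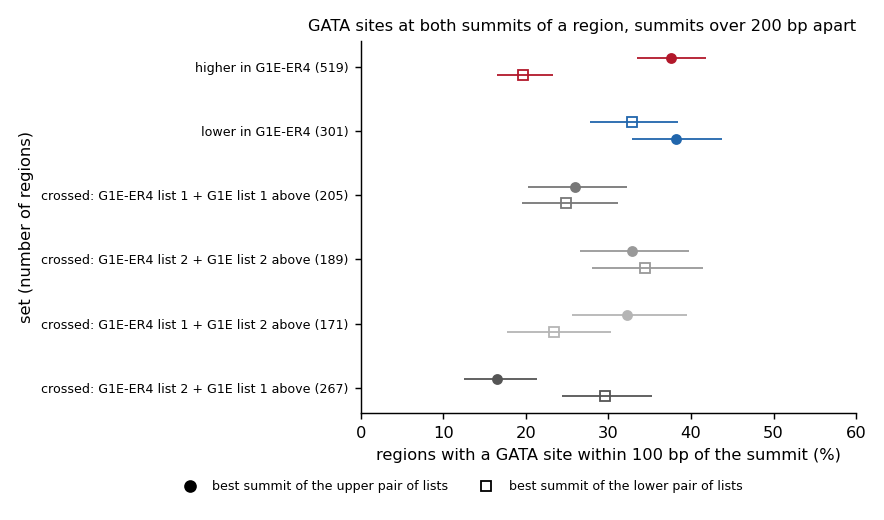
Share of regions with a GATA site within 100 bp of each of their best summits, with 95% Wilson intervals, for regions whose summits lie over 200 bp apart; filled circles are the summit of the upper pair of lists and open squares that of the lower pair, so in the top row the circle is G1E-ER4 and in the next row the square is. Members had 37.6% at the G1E-ER4 summit and 19.7% at the G1E summit, and the crossed sets differed by -13.1 to 8.77 points.

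Members were wider than the regions of the other sets. Their median width was 2465 bp, against 1642 bp in the lower-ranking regions and 1274 to 1978 bp in the crossed sets, and 39.8% had exactly 1 peak in each list. The part of width in the counts was not tested beyond the limit of 2000 bp given above. At the G1E-ER4 summit, 14.2% of members (12.3 to 16.5) lay in a promoter, taken as 1000 bp either side of a protein-coding start, 9.24% in another exon, 48.1% in an intron and 28.4% between genes. The promoter share was 5.54% in the regions that ranked lower in G1E-ER4, 4.65 to 20.5% in the crossed sets and 11.4% in the other regions, so members lay inside the crossed range. The share between genes was lower in members than in the other sets, which had 43.1% in the lower-ranking regions, 32.5 to 43.8% in the crossed sets and 39.7% in the other regions. The lists themselves differed here: promoters made up 53.0% and 77.9% of the top 10% of G1E-ER4 lists 1 and 2 and 71.6% and 69.9% of that of G1E lists 1 and 2. The median distance to a start was 8040 bp in members, against 15750 bp in the lower-ranking regions and 8568 to 15784 bp in the crossed sets. The 148 promoter members had a median GC content of 62.0%, a Klf-type sequence in 61.5% and a GATA site in 18.9%, beside 61.0%, 53.0% and 17.4% in other promoter regions that could have qualified.

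Among promoter members the widest gaps, named here after their values were seen, were at Vangl2, Ltbr, Myl7, Fam69b, Tubb1 and Itga7. The Vangl2 promoter, of a planar polarity protein, had 77.3 and 81.7 in G1E-ER4, against 30.4 and 27.7 in G1E. The promoter of Tubb1, the beta-tubulin of platelets and megakaryocytes, at chr2:174275557-174276549 had 91.6 and 91.5 in G1E-ER4, against 51.7 and 36.7 in G1E. The other Tubb1 member, 5217 bp upstream, had 73.4 and 77.6 in G1E-ER4, against 51.7 and 26.6 in G1E.

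Within 50 kb of a start lay 941 members (90.6%), nearest to 830 genes; a nearest start does not show which gene a region acts on. There were 15 genes with 3 or more members, against 4 in the regions that ranked lower and 1 to 4 in the crossed sets, which hold fewer regions. Prex1, an exchange factor for Rac, had 5 members among its 14 shared regions and no lower-ranking one. Its strongest, at chr2:166490564-166494185, had 93.1 and 92.6 in G1E-ER4, against 39.3 and 38.5 in G1E. Casz1, a zinc-finger transcription factor, had 4 of 12, with the widest gap of 37.1 points for a region that lies in an intron of Pex14. Among the genes with 3 members were Spdef, Epha2, an ephrin receptor, Sp2, an Sp-family transcription factor, Cit, the citron kinase of cytokinesis, Gse1 and Kcp. The Epha2 members spanned its upstream region, an intron and an exon.

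Prex1 stands in the 10 Mb window that held most members. The window at 160 to 170 Mb of chromosome 2 had 45 members among 311 shared regions (14.5%) and 5 lower-ranking regions, and its peaks of all kinds leaned to G1E-ER4 with a log2 ratio of 0.48. Next came 30 to 40 Mb of chromosome 2 with 28 of 370, 90 to 100 Mb of chromosome 11 with 27 of 349, 20 to 30 Mb of chromosome 17 with 26 of 497 and 110 to 120 Mb of chromosome 11 with 25 of 353, with log2 ratios of -0.06 to 0.05. In the 7 windows whose log2 ratio was over 0.25, 10.0% of shared regions were members, against 4.57% in the 158 windows between -0.25 and 0.25 and 1.93% in the 53 windows below. The 10.0% came mostly from the first window above and from 30 to 40 Mb of chromosome 5, with 22 of 232. The rest of the 7 windows held 0 to 2 members each. The part of the lean of all peaks in the single members was not tested. In the balanced windows 923 members remained, 13 genes had 3 or more, and the GATA share was 40.4% against 22.2 to 38.2% in the crossed sets. Members made up 1.35% of shared regions on X and 5.89% on chromosome 2, with the other nuclear chromosomes between.

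For 14 lists of blood and contrast genes, drawn up with earlier results known, 680 shared regions had a listed gene as the nearest start and 27 were members (3.97%), against 4.48% of the regions within 50 kb of any gene. Another 27 were lower-ranking regions and 10 to 28 fell in each crossed set, so the share at listed genes was near that at all genes. The red cell membrane list had 5 members among 72 shared regions, beside 3 lower-ranking regions and 0 to 2 in the crossed sets. The Ank1 member, in an intron of the gene for ankyrin-1, which ties the membrane to spectrin, had 57.4 and 69.5 in G1E-ER4, against 28.6 and 32.1 in G1E. The other shared regions at Ank1 had gaps of -50.5 to 4.85, and none met the rule for lower-ranking regions. A gap is below 0 wherever the lists of the states overlap. Its median was -11.7 in the other regions that could have qualified. Near Slc4a1, the band 3 anion exchanger, named here after its values were seen, the G1E-ER4 lists disagreed, with 24.7 and 80.8 against 3.34 and 13.5 in G1E, so that the gap of 11.3 rests on G1E-ER4 list 1. The others of this list were at Tmod1, Ube2l6 and Add1.

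The list of survival and maturation genes had 3 members among 88 shared regions, beside 5 lower-ranking regions and 1 in each crossed set. Among these genes Socs3, an inhibitor of cytokine receptor signalling through JAK and STAT, had members on both sides. The upstream one, chr11:117835037-117836746, had 89.8 and 83.4 in G1E-ER4, against 2.30 and 32.5 in G1E, and the downstream one had 57.2 and 66.2 in G1E-ER4, against 26.9 and 2.13 in G1E. Pim1, a kinase induced by cytokines, had 1 member. The megakaryocyte list had 4 of 32, at Tubb1, Gp1bb and Itgb3, beside 2 lower-ranking regions and 0 to 3 in the crossed sets. The Itgb3 member had 93.8 and 91.1 in G1E-ER4, against 16.0 and 75.5 in G1E, so that its gap of 15.6 rests on G1E list 2. The progenitor list had 4 of 51, at Etv6, Nkx2-3, Runx1 and Kit, beside 1 lower-ranking region and 0 to 3 in the crossed sets. The Kit member, in an intron of the stem cell factor receptor gene, had 86.9 and 86.3 in G1E-ER4, against 75.8 and 66.8 in G1E. It was the only member at Kit, and the other shared regions there had gaps of -34.9 to -3.71. None of these met the rule for lower-ranking regions, and a gap is below 0 wherever the lists of the states overlap. The Kit promoter stood at 85.3 and 96.5 in G1E-ER4, against 98.4 and 98.1 in G1E. At heme and iron genes 1 of 81 shared regions was a member, at Steap3, a ferrireductase, beside 2 lower-ranking regions and 0 to 5 in the crossed sets. At erythroid transcription factors 3 of 109 were, at Bcl11a and Tcf3, beside 2 lower-ranking regions and 1 to 6 in the crossed sets. No member was nearest to a listed globin gene (5 shared regions), to a granulocyte, monocyte or mast cell gene (33), to an estrogen receptor target (33) or to a housekeeping gene (40). Only 5 of the 9 annotated globin genes lay on the chromosomes kept. At the 4.48% share over all genes, so few regions would hold few members or none, so these absences are not read as results. Genes of liver and neural tissue, listed as a contrast, had 4 of 19, at Hnf4a, Gfap, Syp and Olig2, beside 2 lower-ranking regions and 0 to 1 in the crossed sets, and lymphoid genes had 1 of 29. At Hnf4a, which lies in the chromosome 2 window leaning to G1E-ER4, the promoter member had 65.6 and 70.2 in G1E-ER4, against 44.1 and 37.4 in G1E, while the next intron region ranked lower, with 29.8 and 60.2 against 87.5 and 82.0. The cell cycle list had 1 of 52, at Ccnd3, and autophagy genes 1 of 69, at Atg2a.

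A region open in both G1E-ER4 lists and neither G1E list lay within 10 kb of 20.5% of members (18.2 to 23.1), against 8.02% of the regions that ranked lower in G1E-ER4, 8.37 to 14.6% of the crossed sets and 10.8% of the other regions. A region open only in G1E lay near 11.5% of members and 22.9% of the lower-ranking regions. Each crossed set likewise had regions of its own upper lists alone near 15.8 to 21.4% of its members, so neighbours leaning the same way were also seen where only lists differed.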

How the data were processed

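Peaks were analysed from 4 deposited narrowPeak lists, 2 for each of 2 samples. Per the series design text, the authors aligned 20-base DNase-seq reads to mm9 with Bowtie, kept reads with several matches at their best place, smoothed cut density with F-seq and called peaks with a gamma fit; the sources used here give no tool version, depth or peak threshold. The deposited signal in column 7 is the authors' peak height, and the score, p-value and q-value columns were not used. Because signal scales differ between lists, only ranks within a list were compared, with Python 3.11.15, pandas 2.3.3, numpy 2.4.6 and pysam 0.24.0. Genes are protein-coding GENCODE vM1 entries and sequence is NCBIM37 (mm9). Chromosomes 3, 7, 9 and 12 were left out by the rule that chose the members.

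The members, gene lists, motifs and alternatives were chosen with earlier results of these data known. Named regions are the 12 largest gaps, the 10 genes with most members (some not reported here), up to 4 members per gene list, the 5 fullest windows and regions at the limit. Regions are not replicates of a state, so no p-values were computed; shares carry Wilson intervals and stand beside the 4 crossed pairings. The merging, gap rule and motif search were tested on simulated data.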

Additional observations from a re-analysis of the deposited data

How the results depend on the processing

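The number of regions ranking higher in G1E-ER4 lay above the crossed range in 10 of 16 alternatives and inside it in 6; the number ranking lower lay above in 11, inside in 4 and below in 1. The regions ranking higher and lower numbered 1731 and 1489 at a minimum gap of 5 points, 409 and 382 at 20 points, 280 and 184 in the top 50% of each list (all above the crossed range), 217 and 201 with 50% reciprocal overlap and 1483 and 1108 with the median percentile (all inside), 420 and 529 with only 100 bp around summits merged and 412 and 558 in regions of at most 2000 bp (higher inside, lower above). Leaving out 1 list, with regions and crossed sets formed anew from the remaining lists, gave 2809 to 3857 higher and 1634 to 5054 lower. Fewer conditions then had to be met, and without either G1E list the higher count was inside the crossed range.

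The GATA share of the higher regions lay above the crossed range in 18 of 22 alternatives. It was inside that range without either G1E-ER4 list, in the 400 bp window and at the other state's summit. It was 52.1% with reciprocal overlap, 49.3% with summits merged, 34.5% with the median percentile, 51.1% in the top 50%, 44.2% with percentiles within 5 GC classes, 46.4% up to 2000 bp, 25.0% in a 100 bp and 55.5% in a 400 bp window, and 43.7% outside promoters. At the other state's summit it was 31.3%. Leaving out 1 list gave 30.3 to 39.3%. In the lower regions it was 39.3% with the median percentile, 54.3% in the top 50%, 29.7% and 60.1% in the 100 and 400 bp windows, and 33.4 to 43.7% with 1 list left out. The shares with 2 or more GATA sites and with the composite lay above the crossed range in 18 of 21 alternatives each. Both were inside it without either G1E-ER4 list. At the other state's summit they were 7.22% (crossed 4.48 to 8.10%) and 4.81% (crossed 1.42 to 4.91%). The ETS share lay below it in 5 of 21, and the Klf share above it in 3 and below it in 1: 42.1% in the top 50%, 41.9% at the other state's summit, 43.7% without G1E-ER4 list 1 and 24.9% without list 2. The lower regions had 43.3% GATA with reciprocal overlap, 48.0% with summits merged and 43.5% within GC classes.

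The promoter share lay inside the crossed range in 16 of 18 alternatives. It was 4.61% with reciprocal overlap, 6.19% with summits merged, 21.4% with the median percentile, 12.1% in the top 50%, 7.30% with percentiles within promoters and other peaks, 10.9% within GC classes, 7.04% up to 2000 bp, 10.3% and 24.5% at 500 and 2500 bp from a start, and 6.74 to 17.2% with 1 list left out. The difference in GATA share between summits lay above the crossed range in 15 of 17 alternatives; it was 15.8 points with the median percentile (crossed -7.43 to 18.3), 32.0 points in the top 50%, 26.9 up to 2000 bp and 4.85 to 15.9 with 1 list left out, while 2 alternatives left under 20 regions in a set. Balanced windows, summits within 100 bp (43.6% GATA), GC weighting (46.1%) and all alternatives for repeated GATA sites, the composite and the summit difference were chosen after seeing the data. The cause of these changes was not tested. No paired analysis was possible because each state has 1 sample and the number of a list ties it to no list of the other state.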
